A study of Homo sapiens with 2 samples.

Results

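Expression of 9 genes is described here in HCC1954 cells: the alpha-arrestin genes TXNIP, ARRDC1, ARRDC2, ARRDC3 and ARRDC4, the thioredoxin genes TXN and TXN2, and MLX and MLXIP, which encode the glucose-sensing transcription factors. They were taken by symbol from a table of 62699 genes, in which each of the 9 matched 1 gene ID, and they were chosen by their role after the ratios of this same comparison were known, which are the measured values behind the choice. Their values are therefore a description and support no test. HCC1954 is an established human breast cancer cell line labelled HER2-positive, and RNA came from 1 library of cells labelled ASO-1235 and 1 library of cells labelled ASO-NC. The study asks what the long non-coding RNA LINC01235 does to transcription in these cells, and no dose or time is given in the labels used here. The groups follow the genotype labels. The title of the ASO-1235 library has the prefix Si, so its labels differ on the agent.

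Alpha-arrestins are adaptor proteins with an arrestin fold. They hold short PPxY motifs that bind ubiquitin ligases of the NEDD4 family, and in this way they direct receptors and transporters at the cell surface to endocytosis and degradation. TXNIP has a further role, since it binds the reduced form of thioredoxin, the small protein that keeps the cysteines of other proteins reduced. TXNIP and ARRDC4 are textbook target genes of the heterodimer of MLXIP (also called MondoA) and MLX, which accumulates in the nucleus when glucose 6-phosphate rises and binds carbohydrate response elements, which are paired E-box-like sequences with a spacer of 5 bases.

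The ASO-1235 library held 37916307 counts and the ASO-NC library 48092494. LINC01235 had 0 counts in the ASO-1235 library and 1337 in the ASO-NC library. With a floor of 3 counts in place of the 0 it was 373-fold lower. The upper end of the 95% counting interval of its ratio was 0.00661, a smaller difference than that. All 10 epithelial and HER2 marker genes were above 1 CPM (counts per 1000000 counts of the library) and within 1.5-fold between the libraries, with summed levels of 10515 CPM in ASO-1235 and 11209 CPM in ASO-NC. Of 6 fibroblast, 6 immune, 4 endothelial and 4 adipocyte markers, 1 of each list reached 1 CPM. Their summed levels in ASO-1235 and ASO-NC were 40.8 and 45.1 CPM, 1.54 and 2.23 CPM, 7.40 and 8.08 CPM, and 3.61 and 5.08 CPM. The fibroblast marker above 1 CPM was the collagen gene COL1A1. It held most of that sum, at 39.9 CPM in ASO-1235 and 44.3 CPM in ASO-NC, while PDGFRB had 0 counts in both libraries. The immune marker, LYZ, had 44 counts in ASO-1235 and 98 in ASO-NC, a ratio of 0.537 (0.309 to 0.904). The share of counts from the mitochondrial genome was 24.1% in ASO-1235 and 26.5% in ASO-NC. With 1 library per group there is no replicate check, no p-value can be given, and the ratios compare these libraries rather than the conditions. Levels are CPM on TMM-scaled libraries, ratios are ASO-1235 over ASO-NC, and the 95% intervals after each ratio are exact intervals on halved counts, because the mates of a read pair seem to have been counted separately. They cover counting error only.

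TXNIP, ARRDC3 and ARRDC4 were close to 2-fold higher in the ASO-1235 library, and none of the other 6 genes differed by 1.5-fold. Calls asked for 3 things: a level of 1 CPM in either library, a ratio of 1.5-fold or more, and 1 outside the interval. All 9 genes passed the minimum, with 3 called higher and 0 called lower. Over all 14291 genes tested, 5.02% were called higher and 2.04% lower, that is 718 and 291 genes (1032 and 180 when libraries were scaled by total count). A size of 2-fold called 2.24% higher and 0.518% lower, and a size smaller than 1.5-fold called 11.8% higher and 8.88% lower. Since the genes were picked with this comparison known, nothing is read from the 3 of 9. The other 6 ratios were all below 1, from 0.756 to 0.982, against a median log2 ratio of −0.0031 over all genes tested.

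TXNIP (ENSG00000265972.6, minus strand of chromosome 1, GRCh38 145992435 to 145996600) had 23111 counts in the ASO-1235 library and 14698 in the ASO-NC library. These are 591.7 CPM in ASO-1235 and 314.8 CPM in ASO-NC. The ratio was 1.88 (1.83 to 1.94), a log2 ratio of 0.91. TXNIP is an abundant transcript, number 173 of the 14291 genes by mean CPM. Among the 2858 genes of highest mean CPM, 18 genes (0.63%) were called higher. TXNIP was number 2 of them by ratio, after KLF10, itself a gene described as responsive to glucose. TXNIP was chosen with its ratio known, so its place among other genes is a description. No gene of similar mean CPM, of 128 compared, had a ratio as high, and the nearest, ARFGEF2, was at 1.21.

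ARRDC4 (ENSG00000140450.9, plus strand of chromosome 15, 97960698 to 97973838), the closest relative of TXNIP in its regulation by glucose and another adaptor linked to glucose uptake, had 3541 counts (90.7 CPM) in ASO-1235 and 2122 counts (45.5 CPM) in ASO-NC. Its ratio was 1.99 (1.85 to 2.15). ARRDC3 (ENSG00000113369.9, minus strand of chromosome 5, 91368724 to 91383359), an adaptor known from work on beta-adrenergic receptors and on integrin beta 4 in breast cancer cells, had 2007 counts (51.4 CPM) in ASO-1235 and 1176 counts (25.2 CPM) in ASO-NC. Its ratio was 2.04 (1.84 to 2.26). ARRDC3 was the only one of the 9 past 2-fold, and ARRDC4 lay just under that size. Of the 2858 genes in their range of mean CPM, 29.4 to 68.1 CPM, 1.15% were called higher. ARRDC3 was number 6 and ARRDC4 number 7 of these genes by ratio, a description of genes chosen with their ratios known.

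**Figure D1:**
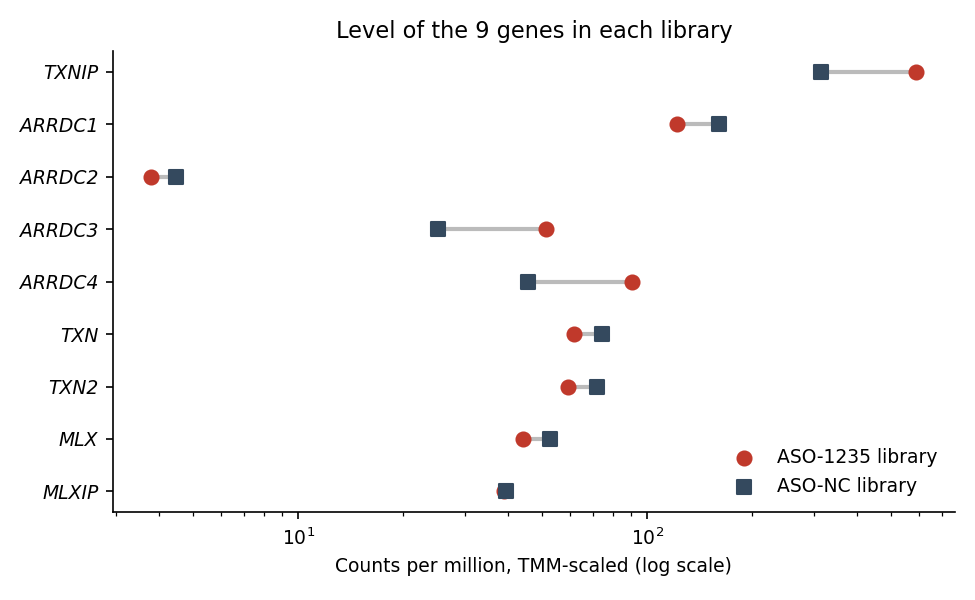
Levels of the 9 genes in CPM on a log axis, with circles for the ASO-1235 library and squares for the ASO-NC library (1 library each, so there are no error bars). TXNIP, ARRDC3 and ARRDC4 lie to the right of their ASO-NC values, ARRDC1, ARRDC2, TXN, TXN2 and MLX lie to the left, and the MLXIP points nearly coincide at 38.8 CPM and 39.5 CPM.

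The 3 higher genes kept nearly the same proportions to each other in both libraries. This can be read from counts within a library, which do not depend on scaling. TXNIP had 6.53 counts for each ARRDC4 count in ASO-1235 (6.21 to 6.87) and 6.93 in ASO-NC (6.49 to 7.39), a change of 0.942-fold whose interval included 1 (0.869 to 1.02). TXNIP over ARRDC3 was 11.5 in ASO-1235 and 12.5 in ASO-NC, a change of 0.921-fold (0.829 to 1.02). ARRDC4 over ARRDC3 was 1.76 in ASO-1235 and 1.80 in ASO-NC, a change of 0.978-fold (0.861 to 1.11). The depth therefore did not resolve a difference among the ratios of these 3 genes. They were grouped by ratios near 2-fold, so these proportions restate those ratios. ARRDC1 over ARRDC3 was 2.37 in ASO-1235 and 6.39 in ASO-NC, a change of 0.371-fold (0.331 to 0.415). This pair was formed after the values were seen. It sets the lowest ratio of the family, ARRDC1 at 64.6% GC content, against the highest, ARRDC3 at 37.6%. Within-library ratios do not remove the trend on GC content and length described below. With that trend removed, the ratios of ARRDC1 and ARRDC3 were 0.874 and 1.73, closer together than 0.756 and 2.04.

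ARRDC1 and ARRDC2 had ratios below 1. ARRDC1 (ENSG00000197070.14, plus strand of chromosome 9, 137605654 to 137615360), which recruits the ESCRT protein TSG101 to the plasma membrane and drives the budding of small vesicles there, had 4756 counts (121.8 CPM) in ASO-1235 and 7519 counts (161.1 CPM) in ASO-NC. Its ratio of 0.756 (0.718 to 0.796) was the lowest of the 9, short of 1.5-fold but below those of 91.8% of all genes tested. ARRDC2 (ENSG00000105643.11, plus strand of chromosome 19, 18001132 to 18014102) was the weakest of the family, with 148 counts (3.79 CPM) in ASO-1235 and 208 counts (4.46 CPM) in ASO-NC. Its ratio of 0.850 had an interval of 0.623 to 1.16, so a difference was not detectable at this depth. ARRDC5, the remaining human alpha-arrestin gene, had 0 counts in both libraries.

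Levels of different genes were compared per kilobase of merged exons. On this scale the alpha-arrestin genes with counts were ordered TXNIP, ARRDC1, ARRDC4, ARRDC3 and ARRDC2 in both libraries, from 163.2 CPM per kilobase for TXNIP to 0.817 for ARRDC2 in ASO-1235 and from 86.9 to 0.961 in ASO-NC. TXNIP made up 71.4% of the summed level of the 5 genes in ASO-1235 and 59.4% in ASO-NC, and ARRDC1 made up 13.9% in ASO-1235 and 28.8% in ASO-NC. The share of ARRDC1 depends on which exons are counted. Per kilobase of the longest coding transcript, which for ARRDC1 is 1586 bases against 3821 bases of merged exons, TXNIP made up 64.2% in ASO-1235 and 47.2% in ASO-NC, and ARRDC1 24.4% in ASO-1235 and 44.5% in ASO-NC.

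Sequence around the transcription starts was examined because TXNIP and ARRDC4 are textbook genes of carbohydrate response elements. RefSeq promoter windows (GRCh38.p14, 250 bases before to 50 bases after a start) were matched by symbol for 8 of the 9 genes, in 11 windows, and both strands were searched. The windows of the 3 higher genes that held a capitalised motif follow, 5′ to 3′ on the strand of the gene. Capitals mark the E-box CACGTG, 2 copies of CACGAG that are 5 bases apart, and the forkhead element GTAAACA or its reverse complement.
TXNIP, chr1:145996530-145996829, minus strand: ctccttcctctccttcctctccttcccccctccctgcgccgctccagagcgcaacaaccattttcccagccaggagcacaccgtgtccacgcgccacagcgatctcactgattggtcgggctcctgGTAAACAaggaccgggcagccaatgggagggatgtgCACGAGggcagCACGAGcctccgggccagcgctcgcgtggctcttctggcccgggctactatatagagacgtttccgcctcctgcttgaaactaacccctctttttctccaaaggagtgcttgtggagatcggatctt
ARRDC4, chr15:97960453-97960752, plus strand: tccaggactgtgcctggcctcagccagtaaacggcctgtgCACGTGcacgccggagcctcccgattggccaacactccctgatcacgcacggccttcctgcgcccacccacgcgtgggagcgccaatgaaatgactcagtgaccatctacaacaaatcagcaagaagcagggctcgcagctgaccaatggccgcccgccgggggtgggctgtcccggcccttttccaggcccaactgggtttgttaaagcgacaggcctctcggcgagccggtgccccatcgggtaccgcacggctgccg
ARRDC3, chr5:91380048-91380347, minus strand: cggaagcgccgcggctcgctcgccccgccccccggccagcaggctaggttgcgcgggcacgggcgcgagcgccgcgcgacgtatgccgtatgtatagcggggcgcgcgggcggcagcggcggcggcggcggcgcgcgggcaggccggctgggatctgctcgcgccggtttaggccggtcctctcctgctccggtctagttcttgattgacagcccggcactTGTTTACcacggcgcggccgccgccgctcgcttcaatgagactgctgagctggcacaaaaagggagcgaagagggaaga

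The TXNIP window held 2 copies of CACGAG 5 bases apart, from base −88 to base −72 before the start. This pair was searched for after the member promoters had been read. Of 35116 windows of the same length in the table, 2 (0.0057%) held it, those of TXNIP and KCTD5, and 20 (0.057%) held the looser pair CACGNG, 5 bases, CACGNG. The paired form CANGNG, 5 bases, CNCNTG was in 0 of the 11 member windows and in 0.564% of all windows. The ARRDC4 window held the palindromic E-box at base −210, which 7.26% of all windows hold. MLX has it too, at base −50, and is shown with 10 bases on each side since its ratio was below 1.
MLX, chr17:42567040-42567065, plus strand: gggcgcgggtCACGTGggcacgccac

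GTAAACA, the core bound by FOXO and other forkhead factors, was in the TXNIP window at base −124 and in 1 of the 2 ARRDC3 windows at base −29, on the opposite strand. That ARRDC3 window belongs to an alternative start, 3262 bases from the outermost start of the gene in GENCODE 29. The core was in 3.42% of all windows and in none of the windows of the other 6 genes that were found. CCAAT, the core bound by the factor NF-Y, occurred 3 times in the ARRDC4 window and 2 times in that of TXNIP, on either strand. It was searched for after the windows had been read, and it is common: 34.6% of all windows and those of 7 of the 8 genes held it. The cyclic AMP response element TGACGTCA was in the MLXIP window and in 1.85% of all windows. Its shorter form TGACG, which it contains, was in the windows of ARRDC2, MLX, MLXIP and TXN and in 24.6% of all windows. These matches are letters in a window and not sites shown to be bound.

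**Figure D2:**
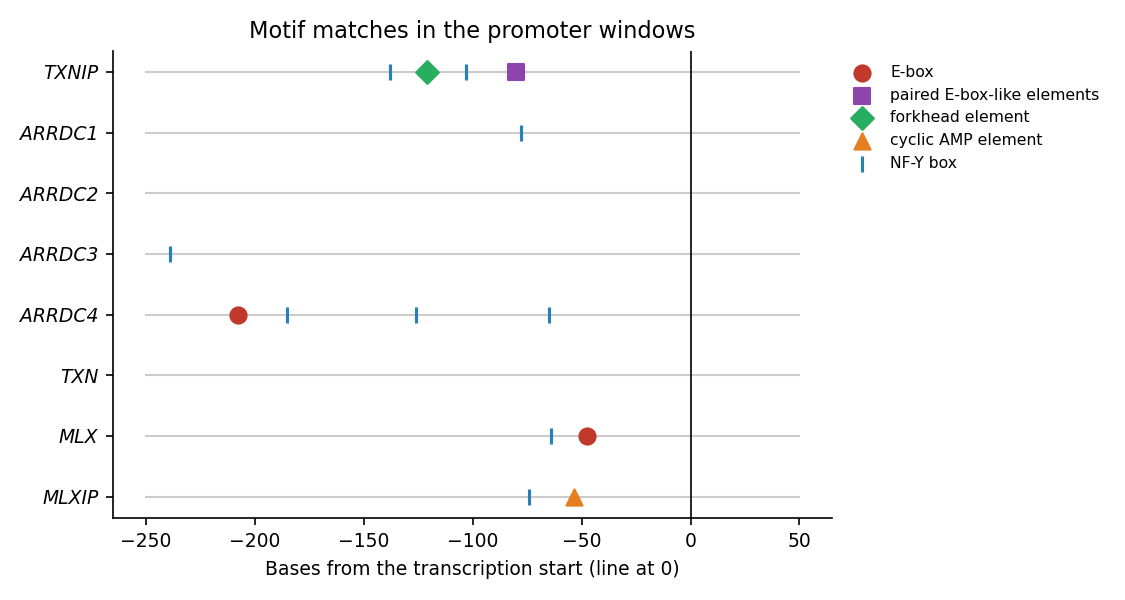
Motif matches in the window nearest to the outermost annotated start of 8 genes, in bases from the transcription start (negative: before it), with symbols for each kind of motif at the middle of the match. TXNIP alone holds the paired E-box-like elements, ARRDC4 and MLX hold the E-box, and the ARRDC3 match to the forkhead element lies in its other window and is not drawn.

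The thioredoxins were modestly lower in the ASO-1235 library, by nearly the same amount with TMM scaling alone. With the trend on GC content and length removed, TXN was at 0.799 and TXN2 nearer to 1, at 0.916. TXN (ENSG00000136810.13, minus strand of chromosome 9, 110243811 to 110256640), the cytosolic and nuclear thioredoxin that TXNIP binds, had 2403 counts (61.5 CPM) in ASO-1235 and 3461 counts (74.1 CPM) in ASO-NC, a ratio of 0.830 (0.770 to 0.894). TXN2 (ENSG00000100348.10, minus strand of chromosome 22, 36467036 to 36482030), the mitochondrial thioredoxin, had 2321 counts (59.4 CPM) in ASO-1235 and 3359 counts (72.0 CPM) in ASO-NC, a ratio of 0.826 (0.766 to 0.891). Neither passed 1.5-fold. Of all genes tested, 17.3% had a ratio below that of TXN and 16.8% below that of TXN2. TXNIP had 9.62 counts for each TXN count in ASO-1235 (9.06 to 10.2) and 4.25 in ASO-NC (4.03 to 4.48), a change of 2.26-fold (2.09 to 2.45). This change follows from the ratios of the 2 genes, which lie on opposite sides of 1. Per kilobase of merged exons, TXNIP stood at 3.03 times the level of TXN in ASO-1235 and 1.34 times in ASO-NC. These are RNA levels, and protein was not measured in these files. The 8 pseudogenes of TXN and TXN2 held 3 counts in all in ASO-1235 and 2 in ASO-NC.

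Of the transcription factor genes, MLX was modestly lower in the ASO-1235 library, by about as much as the thioredoxins with TMM scaling. MLXIP was little different, and neither passed 1.5-fold. MLX (ENSG00000108788.12, plus strand of chromosome 17, 42567068 to 42573239), the shared partner of MLXIP and MLXIPL, had 1721 counts (44.1 CPM) in ASO-1235 and 2451 counts (52.5 CPM) in ASO-NC, a ratio of 0.839 (0.768 to 0.916). MLXIP (ENSG00000175727.15, plus strand of chromosome 12, 122078722 to 122147347) had 1515 counts (38.8 CPM) in ASO-1235 and 1844 counts (39.5 CPM) in ASO-NC. Its ratio of 0.982 (0.891 to 1.08) had an interval that included 1 and lay above 1, at 1.04, with scaling by total count. MLXIP over MLX was 0.880 counts in ASO-1235 (0.797 to 0.972) and 0.752 in ASO-NC (0.690 to 0.820), a change of 1.17-fold (1.03 to 1.33). MLXIPL, which encodes the related factor ChREBP, had 220 counts in ASO-1235 and 362 in ASO-NC, a ratio of 0.726 (0.568 to 0.926).

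**Figure D3:**
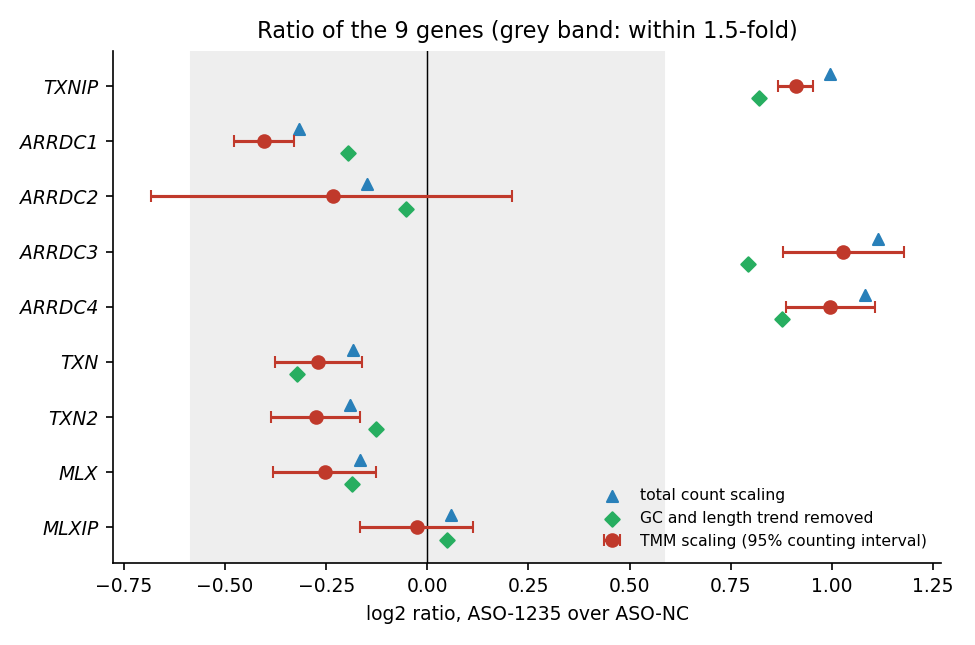
The log2 ratio of ASO-1235 over ASO-NC for the 9 genes, with circles and 95% counting intervals for TMM scaling, triangles for total count scaling and diamonds for ratios freed of the trend on GC and length; the grey band spans 1.5-fold either way. TXNIP, ARRDC3 and ARRDC4 lie right of the band in all 3 versions, and the other 6 genes lie inside it.

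The ratio moved with the base composition of transcripts across the whole table, and the 9 genes differ in it. Among the 2793 genes of lowest GC content the log2 ratio had a median of 0.21, and among the 2793 of highest GC content −0.19, and 8.59% of the first and 2.33% of the second were called higher. The longest coding transcripts of ARRDC3, ARRDC4 and TXNIP had 37.6%, 43.4% and 43.9% GC, and those of ARRDC1 and ARRDC2 had 64.6% and 62.2%. That of TXN had 42.8% GC, and the ratio of TXN was 0.830. With the trend on GC content and length removed, the ratio was 1.77 for TXNIP, 1.73 for ARRDC3 and 1.84 for ARRDC4, all still past 1.5-fold, and 0.874 for ARRDC1. TXN was then at 0.799 and TXN2 at 0.916. The part of base composition in the remaining differences was not tested.

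**Figure D4:**
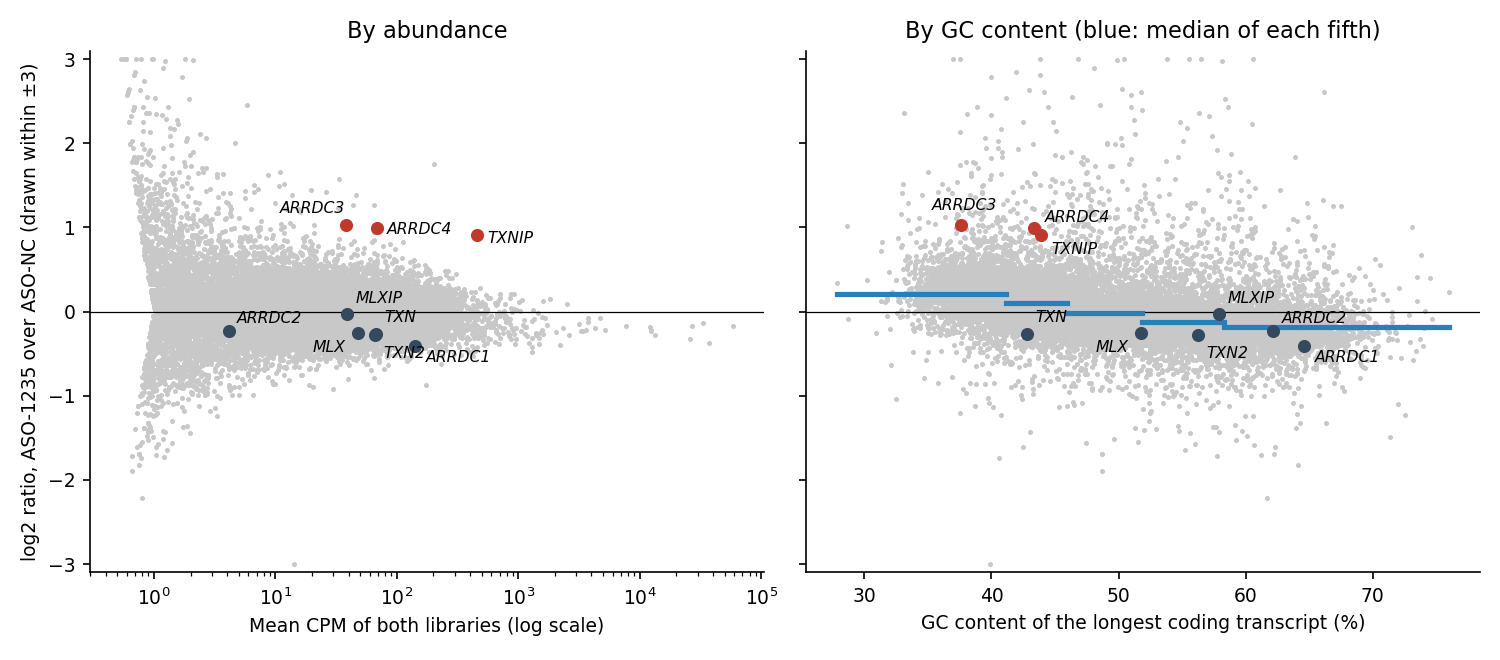
The log2 ratio of ASO-1235 over ASO-NC against mean CPM on a log axis (left) and against GC content in percent (right) for the 14291 genes tested, drawn within ±3; blue lines are medians of 5 equal groups of genes by GC content. TXNIP, ARRDC4 and ARRDC3 (red) lie above nearly all genes of similar abundance, at log2 ratios of 0.91, 0.996 and 1.03. Of genes of similar mean CPM, 0 of 128 lay above TXNIP, 1 of 1337 above ARRDC4 and 4 of 1620 above ARRDC3. The other 6 genes (dark) lie within the cloud.

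Some annotated genes overlap the 9, and the strand setting of the counting is not given in the sources used here. ARRDC3-AS1, on the opposite strand and sharing 145 exon bases with ARRDC3, had 25 counts in ASO-1235 and 9 in ASO-NC, few against the 2007 and 1176 counts of ARRDC3. ARRDC1-AS1, which shares 29 bases with ARRDC1, had 546 counts in ASO-1235 and 633 in ASO-NC. PSMC3IP, which shares 770 bases with the end of MLX, had 213 counts in ASO-1235 and 342 in ASO-NC. Reads of these stretches cannot be told apart, and TXNIP, ARRDC4, TXN, TXN2 and MLXIP share no exon bases with another gene in GENCODE 29. The genes that share 442 bases with ARRDC2 and 183 with ARRDC1 had 0 counts in both libraries.

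Among genes described as responsive to glucose through MLXIP or its relative ChREBP, the members went in different directions. Of 28 listed, 20 passed the minimum, with 2 called higher, 1 called lower and a median log2 ratio of −0.05. Over all genes tested, 5.02% were called higher and 2.04% lower. KLF10 and KLF11, Krüppel-like transcription factor genes, were the higher ones. KLF10 had 12227 counts in ASO-1235 and 4334 in ASO-NC, a ratio of 3.37 (3.21 to 3.54), and KLF11 had 1692 and 1115, a ratio of 1.81 (1.63 to 2.02). RGS16, a regulator of G protein signalling, had 65 counts in ASO-1235 and 136 in ASO-NC, a ratio of 0.571 (0.364 to 0.880). HBP1 and PFKFB3 lay just short of 1.5-fold, at 1.43 (1.30 to 1.57) and 1.42 (1.24 to 1.62), and both were called with scaling by total count. The most abundant gene of the list, FASN, which encodes fatty acid synthase, was at 0.831 (0.816 to 0.846), and the desaturase gene SCD was at 0.709 (0.680 to 0.740). SLC2A1, which encodes the glucose transporter GLUT1 that TXNIP is known to remove from the surface, was at 0.806 (0.753 to 0.862). In the network of MAX and MLX partners, 0 of 11 genes were called and the median log2 ratio was 0.02. MGA and MXD1 had the highest ratios there, at 1.35 (1.26 to 1.44) and 1.30 (1.16 to 1.47), and the most abundant, MYC, was at 0.965 (0.914 to 1.02).

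Of 17 thioredoxin reductases, peroxiredoxins, methionine sulfoxide reductases and ribonucleotide reductase subunits, 16 passed the minimum, with 1 called higher and 0 called lower. The shares over all genes tested were 5.02% higher and 2.04% lower, and nothing is read from a single call. Ratios were below 1 for 11 of the 16, against 7204 of the 14291 genes tested. The median log2 ratio was −0.19, and it was −0.11 with scaling by total count and −0.10 once the GC and length trend was taken out. TXNRD1, the cytosolic reductase of thioredoxin, was at 1.19 (1.12 to 1.26), and the mitochondrial TXNRD2 was at 0.967 (0.854 to 1.09), or 1.03 with scaling by total count. Of the peroxiredoxins, PRDX5, the gene of the list with the highest mean CPM, was at 0.841 (0.805 to 0.879) and PRDX2 at 0.797 (0.759 to 0.838), while PRDX6 was at 1.03 (0.986 to 1.08). The single call was MSRB3, a methionine sulfoxide reductase gene, with 97 counts in ASO-1235 and 68 in ASO-NC and a ratio of 1.70 (1.08 to 2.73). Of 23 other genes with a thioredoxin fold, 19 passed, with 0 called higher, 1 called lower and a median log2 ratio of 0.05. TXNDC12, which encodes a protein of the endoplasmic reticulum, was the single call, with 91 counts in ASO-1235 and 168 in ASO-NC, a ratio of 0.647 (0.441 to 0.940), and it was not called with scaling by total count, at 0.687. The most abundant, TXNL1, was at 1.09 (1.03 to 1.15).

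The list of NEDD4-family ubiquitin ligases, which alpha-arrestins recruit, also holds the WW-domain-binding proteins WBP1 and WBP2 and the adaptors NDFIP1 and NDFIP2. Of its 13 genes 12 passed, with 2 called higher, both ligase genes, against 5.02% of all genes tested. Ratios were above 1 for 8 of the 12, against 49.6% of all genes tested. The median log2 ratio was 0.20, and with the GC and length trend removed it was 0.04 and 1 gene was called higher. NEDD4 had 2145 counts in ASO-1235 and 1594 in ASO-NC, a ratio of 1.61 (1.47 to 1.77), or 1.33 with that trend removed. HECW2 had 227 counts in ASO-1235 and 120 in ASO-NC, a ratio of 2.26 (1.64 to 3.15). ITCH, a ligase that binds TXNIP, was at 1.37 (1.31 to 1.44), and the most abundant, NEDD4L, was at 1.13 (1.09 to 1.17). The ESCRT genes used in vesicle budding had a median of 0.04 with 0 of 16 called, and TSG101, the partner of ARRDC1, was at 1.10 (1.03 to 1.17). The most abundant of them, PDCD6IP, was at 1.08 (1.03 to 1.13). Of 9 other arrestin-fold genes 6 passed and 0 were called. ARRB2, which encodes beta-arrestin 2, was just short of the size asked for at 0.677 (0.594 to 0.770), and it was called lower with median-of-ratios size factors, at 0.663. The related gene ARRB1 was at 0.855 (0.802 to 0.912). The most abundant, VPS26A, was at 1.18 (1.12 to 1.252). Of 22 cargo proteins and TXNIP partners 17 passed, with a median of −0.01. Of these 0 were called higher and 1 lower, against 5.02% and 2.04% of all genes tested. ADRB1, a beta-adrenergic receptor gene, was the single call, with 24 counts in ASO-1235 and 62 in ASO-NC, a ratio of 0.463 (0.216 to 0.927). ITGB4, the integrin linked to ARRDC3, was at 0.909 (0.834 to 0.991), and the most abundant, HIF1A, was at 1.11 (1.08 to 1.15).

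**Figure D5:**
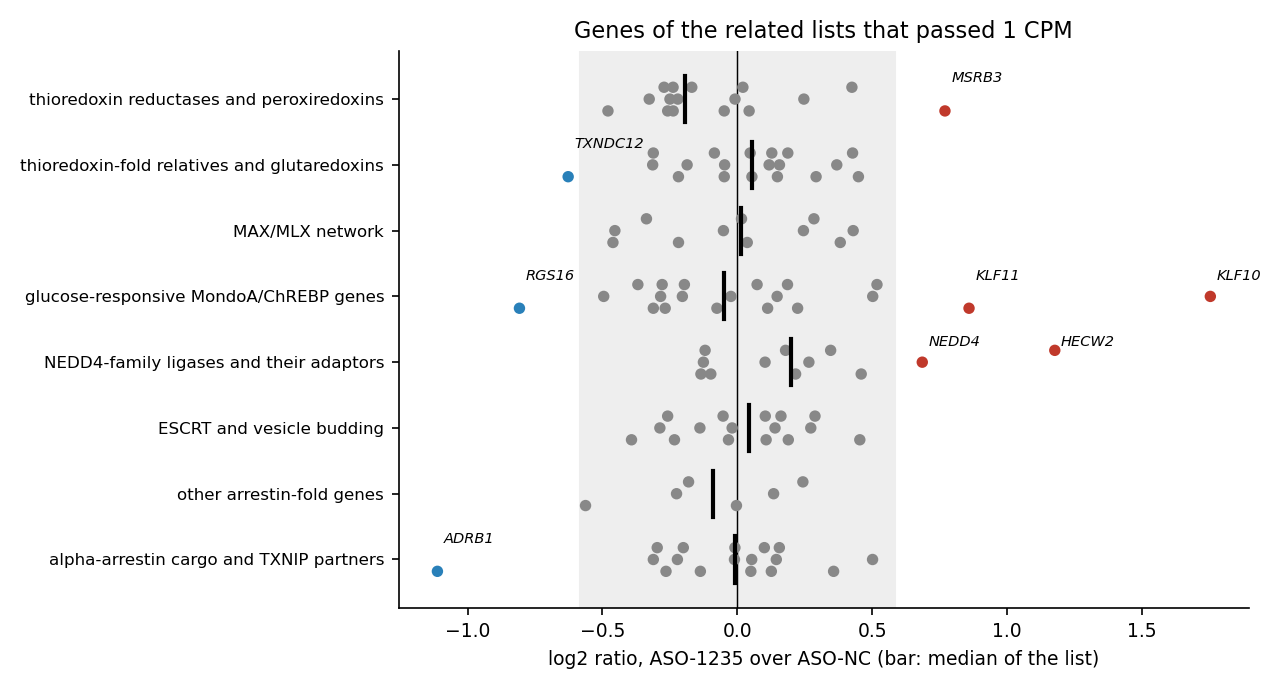
The log2 ratio of ASO-1235 over ASO-NC for each gene of 8 related lists that reached 1 CPM, 1 point per gene, with a bar at the median of each list and the band of 1.5-fold in grey. Red points are called higher and blue points lower. The medians lie between −0.19 and 0.20, well inside the band, and the genes outside it are KLF10, KLF11, HECW2, NEDD4, MSRB3, TXNDC12, RGS16 and ADRB1.

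The genes most like ARRDC3 and ARRDC4 in these 2 libraries were sought among genes of similar mean CPM, by the smallest difference in log2 ratio. For ARRDC3, of 1620 genes, these were KLF11, JMY and AHR, with ratios of 1.81, 1.78 and 2.34. For ARRDC4, of 1337 genes, they were CNST, MEAF6 and KLHL24, with ratios of 1.93, 1.80 and 1.77. For TXNIP the nearest genes after ARFGEF2 were DSTN at 1.18 and RAB6A at 1.17. Likeness over 2 libraries rests on a single ratio per gene.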

How the data were processed

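The authors deposited raw read counts by gene for 2 libraries of polyadenylated RNA, whole numbers with unequal totals and no sign of scaling by the authors. Per the submitters' processing notes, STAR 2.7.11a and featureCounts 2.0.6 were used with hg38. Which annotation release, strand setting and filters went into the counting is not given in the sources used here. Of the deposited lines, 3 held no counts (1 gene ID and 2 lines of coordinates) and were left out. Names came from a table matched by gene ID, and places, lengths and GC content from GENCODE 29 on GRCh38, matched without ID versions.

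In ASO-1235 64.0% and in ASO-NC 67.5% of the lower counts above 0 were even, an excess over the odd ones. Exact Clopper-Pearson 95% intervals of the ratio were therefore taken on counts divided by 2. Reads were amplified by PCR and carry no molecular identifiers, so intervals and floors cover counting error only. TMM factors from genes at 1 CPM or more (edgeR 4.0.16 in R 4.3.3, used for scaling alone) were 1.03 for ASO-1235 and 0.971 for ASO-NC. List medians are of log2 ratios, with a floor of 3 counts for a 0. A robust regression (statsmodels 0.14.6) on splines of GC content and log2 length, each with 5 degrees of freedom, gave the trend. The interval and call rule were run on simulated counts, all of them even and without spread between libraries. That run therefore does not check the halving on the counts used here. Intervals of a change between 2 within-library ratios use the normal approximation to log counts, on halved counts. The other software was scipy 1.17.1, numpy 2.4.6 and pandas 2.3.3 under Python 3.11.15.

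The genes and the lists were chosen with earlier results of these data known. Genes named are the 9, LINC01235, the called members of each list (at most 3 each way), its most abundant member, others whose role bears on one of the 9, and the 3 genes most like TXNIP, ARRDC3 and ARRDC4. HBP1, PFKFB3, MGA, MXD1, MXD3, MLXIPL, SCD, PRDX2, PRDX6, LYZ, COL1A1, MAP3K5 and ARRB2 were named after their values were seen. The paired element of TXNIP, its looser form, CCAAT and the within-library ratios to ARRDC3 were added after the data were seen. A comparison of the proteins was planned and is not analysed here.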

Additional observations from a re-analysis of the deposited data

How the results depend on the processing

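TXNIP, ARRDC3 and ARRDC4 were all called higher under 10 of 11 alternatives, the exception being a size of 2-fold, which kept ARRDC3 alone. Several of the 10 could hardly remove calls of genes at these levels, so the count is no measure of robustness. These were a changed or absent minimum CPM, a size smaller than 1.5-fold, intervals without halving and a few counts added to each gene. The 3 genes were also chosen with their ratios known. Of the other 6 genes ARRDC1 alone was called under any alternative. With a size of 2-fold, 1 of the 9 genes was called higher (ARRDC3), among 320 higher and 74 lower genes in the whole table. With a size smaller than 1.5-fold, 1 of the 9 was called lower (ARRDC1), among 1691 higher and 1269 lower. Across the 9 alternatives that keep 1.5-fold, log2 ratios ranged from 0.82 to 0.996 for TXNIP, from 0.79 to 1.11 for ARRDC3, from 0.88 to 1.08 for ARRDC4, from −0.43 to −0.20 for ARRDC1 and from −0.06 to 0.06 for MLXIP. A minimum of 5 CPM gave 268 higher and 104 lower genes, and no minimum gave 1122 higher. With scaling by total count 180 genes were called lower, HBP1, PFKFB3 and MAP3K5 passed 1.5-fold and TXNDC12 no longer did. ARRB2 was called lower with median-of-ratios size factors. With the GC and length trend removed, NEDD4 fell short of 1.5-fold and PFKFB3 passed it, while ADRB1 kept a ratio of 0.510 but had an interval that included 1. The median log2 ratio changed sign for the glucose-responsive genes (0.04) and the cargo list (0.08) with total count scaling, for the cargo list also with a minimum of 5 CPM (0.02), for the genes with a thioredoxin fold (−0.07) with the trend removed, and for the network of MAX and MLX (−0.01) with median-of-ratios size factors. MSRB3, TXNDC12, RGS16 and ADRB1 lie under a minimum of 5 CPM. No paired analysis was possible because each group has 1 library. Depth limits ARRDC2 most, and the missing replicates limit every value.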
